A study of Mus musculus with 2 samples.

Results

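Enterocytes, the absorptive cells of the intestinal lining, express genes for taking up and exporting dietary fat and for digesting nutrients at the brush border, while the goblet cells beside them make the mucus. A list of 36 genes of these kinds was examined in pancreatic islets that overexpress the microRNAs miR-141 and miR-200c. A gene was a member when the array's annotation gave its symbol, and no other, for a probe set. This held for 35 genes, measured by 55 of the 45101 probe sets, out of 18193 genes with such a probe set. Sis, which encodes sucrase-isomaltase, was listed and had no value here. The list was put together with the differences of these same arrays already known, so all values below are a description and none is a test. Of the 35 measured members, 15 were below the level taken as readable on both arrays, among them Cdx2, Lct and Muc2, while others such as Vil1 and Dpp4 were bright on both. The name of the list gives the usual site of its genes, and no cell type was identified from it in these samples.

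The material was total RNA of islets of male mice aged 6 weeks, not treated after isolation. One group was transgenic, with the genotype given as miR-141/200c overexpression, and the other was labelled Bl6_control (titles Ripmir_islets and C57Bl6_islets). The labels used here do not name the promoter that drives the transgene, the strain background of the transgenic mice or the number of mice behind a sample. A strain difference and the transgene cannot be told apart. Each group had 1 array (n = 1), no value has a replicate error, and no p-value was computed. Values are log2 RMA values, on which 1 unit is a 2-fold difference. Each difference is the transgenic minus the control value, and "higher" and "lower" refer to these 2 arrays. A gene with several probe sets was represented by the one with the highest mean. The floor was 5.76, the median of all probe set values. A gene below it on both arrays was taken as too dim to read, since RMA values carry no detection call. Called higher or lower means a difference of at least 1 in size.

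In the intestine, fatty acids and monoacylglycerols enter the enterocyte and are carried through the cytosol by fatty acid binding proteins. They are re-esterified in the endoplasmic reticulum and loaded by the microsomal triglyceride transfer protein onto apolipoprotein B, which together with apolipoproteins A-I and A-IV leaves the cell as a chylomicron. Liver shares much of this machinery for its own lipoproteins. The transcription factor HNF4A regulates many of these genes in gut and liver and is also active in islets, and CDX2 and GATA4 regulate several of them in gut.

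The mature sequences of the overexpressed microRNAs are shown because they define the perturbation. Both come from RefSeq (GRCm38.p6), and capitals mark the seed, bases 2 to 8, which pairs with target messenger RNAs. The seeds differ at 1 of 7 bases.
miR-141-3p: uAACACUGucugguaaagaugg
miR-200c-3p: uAAUACUGccggguaaugaugga

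The 250 bases before the annotated start of Fabp1, Fabp2, Rbp2, Apob and Alpi are shown as the promoters of 5 members that were called higher. The sequences are from RefSeq, build GRCm38.p6, on the strand of the gene. They lie at chr6:71199629-71199878 (plus strand), chr3:122894822-122895071 (plus), chr9:98490287-98490536 (plus), chr12:7977427-7977676 (plus) and chr1:87101607-87101856 (minus), in that order. Capitals mark matches on either strand to CAAAGT (part of HNF4 sites) and TATAAA (the TATA box). The windows of Apoa1, Apoa2 and Mttp, also called higher with a readable value, are not shown. Apoa1 and Mttp hold no such match, and Apoa2 holds TATAAA in 1 window.
Fabp1: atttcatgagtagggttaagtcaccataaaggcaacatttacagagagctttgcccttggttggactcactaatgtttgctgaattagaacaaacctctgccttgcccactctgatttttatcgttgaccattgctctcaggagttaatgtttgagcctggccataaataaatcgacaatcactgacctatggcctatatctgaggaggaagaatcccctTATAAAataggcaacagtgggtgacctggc
Fabp2: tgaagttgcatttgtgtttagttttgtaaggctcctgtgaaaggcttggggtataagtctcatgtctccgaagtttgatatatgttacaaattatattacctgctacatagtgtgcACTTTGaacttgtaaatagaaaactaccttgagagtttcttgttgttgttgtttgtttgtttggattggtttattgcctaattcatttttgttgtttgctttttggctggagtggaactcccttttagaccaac
Rbp2: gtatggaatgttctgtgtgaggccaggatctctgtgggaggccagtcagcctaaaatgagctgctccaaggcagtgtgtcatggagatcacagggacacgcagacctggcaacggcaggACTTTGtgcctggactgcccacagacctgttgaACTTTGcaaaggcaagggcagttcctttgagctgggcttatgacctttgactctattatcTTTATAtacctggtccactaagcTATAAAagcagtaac
Apob: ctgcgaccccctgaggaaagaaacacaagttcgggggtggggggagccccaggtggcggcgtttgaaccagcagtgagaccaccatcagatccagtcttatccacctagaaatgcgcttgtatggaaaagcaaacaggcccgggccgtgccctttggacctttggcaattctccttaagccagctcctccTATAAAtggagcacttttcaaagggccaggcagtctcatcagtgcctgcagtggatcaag
Alpi: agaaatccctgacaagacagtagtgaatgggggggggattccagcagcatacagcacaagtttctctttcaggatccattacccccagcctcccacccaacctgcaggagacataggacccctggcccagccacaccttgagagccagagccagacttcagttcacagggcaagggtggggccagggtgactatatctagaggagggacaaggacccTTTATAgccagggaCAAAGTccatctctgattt

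CAAAGT lay 134 to 129 bases before the start of Fabp2, at 2 places before Rbp2 and 19 to 14 bases before Alpi. Before Alpi it was part of the longer CAAAGTCCA, which 2 members and 0.384% of all windows held. Of the 36 members, 31 had at least 1 such window. CAAAGT was present in 11 of these 31 members (35.5%) and in 12.6% of the 32851 windows of the table. TATAAA was present in 11 members (35.5%) and 12.4% of all windows. Other letters searched were TTTATG and TTTATT for CDX factors, in 8 and 4 members and in 10.8% and 18.1% of all windows, and AGATAA for GATA factors, in 7 members and 9.99%. An exact direct repeat of AGGTCA with 1 base between was in none of these 31 members and in 0.0335% of all windows. HNF4 and PPAR factors bind such repeats, and forms that differ from these letters were not searched. TTTATG and TTTATT can overlap each other and, on the other strand, TATAAA by a few bases. Among the 8 members that reached the floor and were called higher, CAAAGT occurred in 3 and TATAAA in 5. Some members had more than 1 window and counted when any held the letters. A match is a description of the sequence and does not show that a factor binds there.

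**Figure D1:**
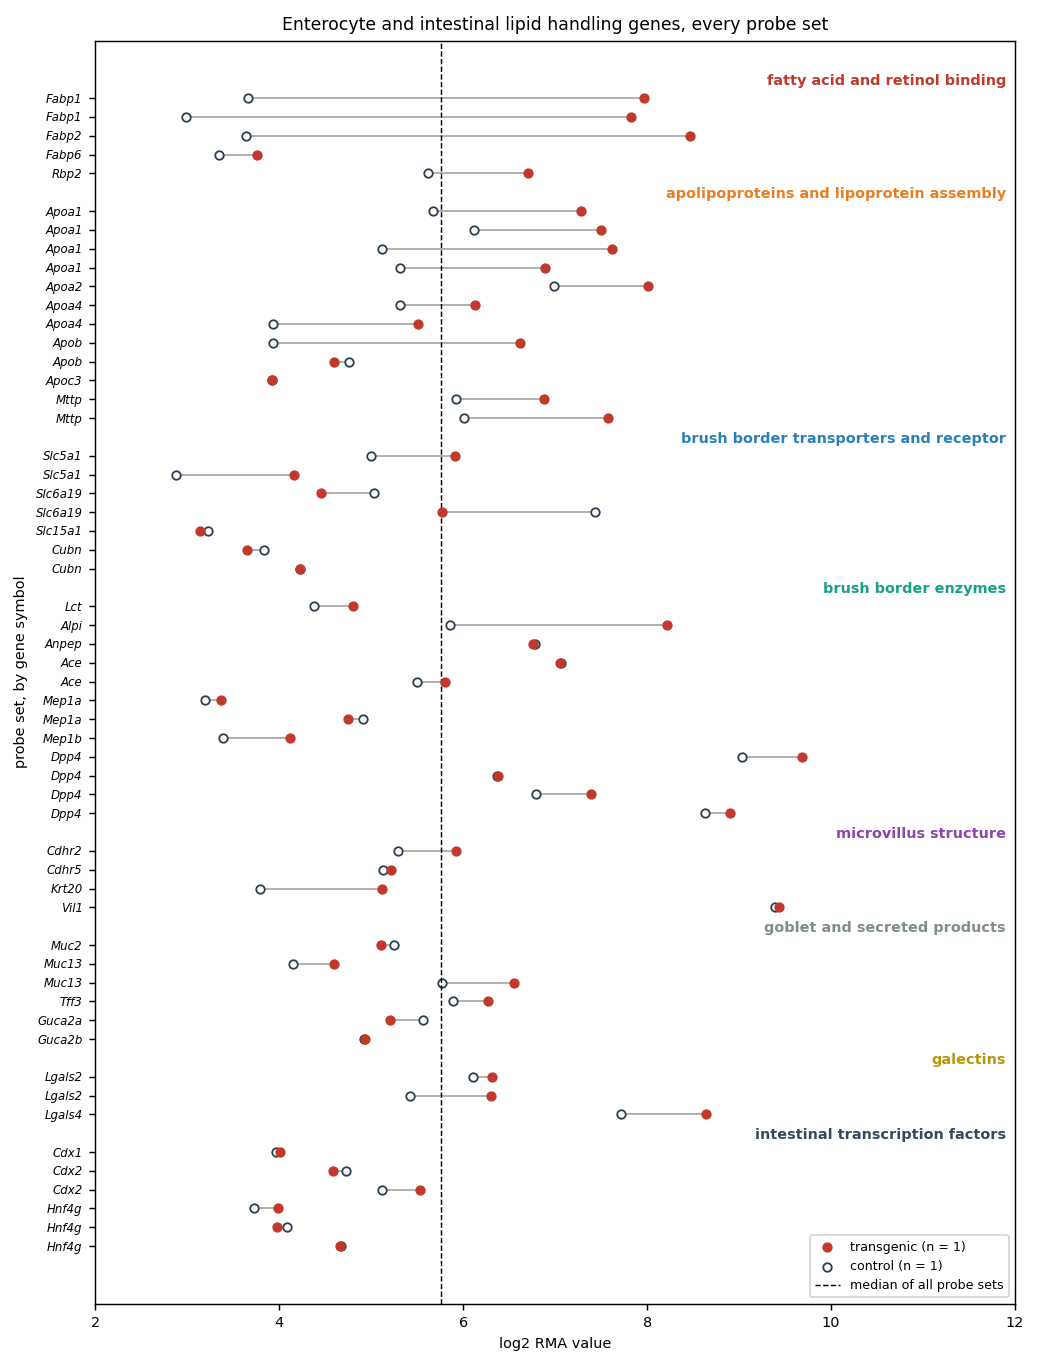
Log2 RMA value of each of the 55 member probe sets, with a filled point for the transgenic and an open point for the control array (1 array each), grouped by role. The dashed line is the floor of 5.76. The long bars of Fabp1 and Fabp2 start below the floor in the control and end at 7.82 to 8.47 in the transgenic sample, while the points of Vil1, Anpep and Apoc3 nearly coincide.

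Of the 4 carriers of fatty acids and retinol, 3 were called higher in transgenic islets, each from a control value below the floor. Over all 18193 measured genes 1.91% were called higher. Fabp2, the intestinal fatty acid binding protein, read 8.47 in transgenic islets and 3.64 in control islets, a difference of 4.83. Fabp1, the liver-type fatty acid binding protein that small intestine also makes, read 7.96 in transgenic islets and 3.66 in control islets. Its other probe set gave 7.82 in transgenic islets and 2.98 in control islets, so the differences were 4.31 and 4.84. Both genes were therefore above the floor only in the transgenic sample. The sizes of these differences rest on control values too dim to read. With the control values raised to the floor, Fabp2 was at least 6.55-fold and Fabp1 at least 4.60-fold higher.

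Rbp2, which binds retinol in the enterocyte cytosol, read 6.70 in transgenic islets and 5.62 in control islets, a difference of 1.08. Its control value lay just below the floor, and against the floor it was at least 1.92-fold higher. Fabp6, the ileal bile acid binding protein, read 3.76 in transgenic islets and 3.34 in control islets, below the floor on both arrays. Of the 4 carriers, Fabp6 was thus the only one not readable in either sample.

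Apob, the structural protein of chylomicrons, gave unlike results at its probe sets. Its brighter probe set read 6.62 in transgenic islets and 3.94 in control islets, a difference of 2.69. Its other probe set read 4.60 in transgenic islets and 4.76 in control islets, below the floor on both arrays, with a difference of -0.16. The probe sets of Apob therefore disagree, and against the floor the brighter one was at least 1.82-fold higher. Mttp, the transfer protein that lipidates apolipoprotein B, was above the floor on both arrays. Both its probe sets read higher in transgenic islets, at 7.58 and 6.88, against 6.00 and 5.92 in control islets. The differences were 1.58 and 0.96, on the same side.

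Apoa1, the main protein of high density lipoprotein, had 4 probe sets. They read 7.28, 7.50, 7.62 and 6.89 in transgenic islets, against 5.67, 6.12, 5.12 and 5.31 in control islets. All 4 were higher in the transgenic sample, by 1.38 to 2.50. Every probe set of Apoa1, and the only one of Apoa2, is of a class that can match several transcripts. Apoa2, a further protein of high density lipoprotein, read 8.01 in transgenic islets and 6.99 in control islets, a difference of 1.02 that is barely past the 2-fold rule. With a repeated quantile normalization it was 0.96, which ends the call.

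Apoa4, which enterocytes secrete on chylomicrons during fat absorption, fell just short of the rule. Its brighter probe set read 6.13 in transgenic islets and 5.31 in control islets, a difference of 0.81. The other read 5.50 in transgenic islets and 3.93 in control islets, a difference of 1.57 between values that both lie below the floor. Apoc3, an inhibitor of the clearance of triglyceride-rich lipoproteins, read 3.92 on both arrays, with a difference of 0.0019. In the GRCm38.p6 gene table Apoa1, Apoc3, Apoa4 and Apoa5 are direct neighbours in that order. Across this cluster the differences were 1.38, 0.0019, 0.81 and -0.17, so the pair that flanks Apoc3 was higher while Apoc3 itself was dim on both arrays. Apoa5, which is made in liver, read 5.75 in transgenic islets and 5.91 in control islets.

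**Figure D2:**
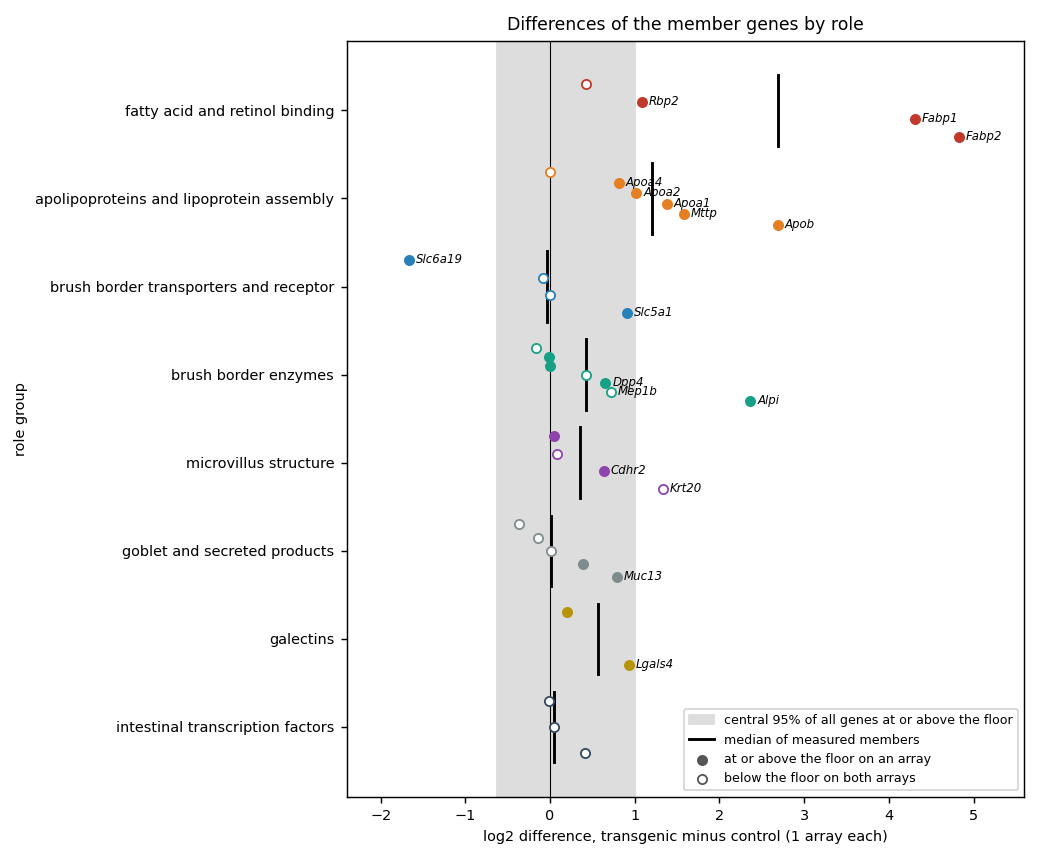
Log2 difference, transgenic minus control, of each of the 35 measured member genes by role group (1 array per genotype). Filled points reached the floor on an array, open points did not, black bars are medians over the measured members, and the grey band is the central 95% of all genes at the floor, from -0.63 to 1.0. The lipid handling groups at the top have medians of 2.69 and 1.2, and the remaining groups lie between -0.041 and 0.57.

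As a group, 7 of the 10 measured lipid handling genes were called higher and none lower, with a median difference of 1.23. Of the 20 measured brush border and goblet genes, 2 were called higher and 1 lower, with a median of 0.066. Of those called higher, Alpi was readable and Krt20 was below the floor on both arrays. Over all 18193 measured genes the median was 0.0094, and 1.91% were called higher and 0.368% lower. The lipid handling median thus exceeded the brush border and goblet median by 1.17. Because the list was chosen with these differences known, the contrast between the groups carries no weight as evidence. Counted by probe set, 12 of 17 lipid handling probe sets were at least 1 higher, against 3 of the 38 other member probe sets and 1.51% of all 34945 probe sets with a sole gene symbol.

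The floor bears on these counts. Of the 35 measured members 20 reached it on at least 1 array, and 7 of these did so only through the transgenic sample, 5 of them lipid handling genes. Among the 20, 8 were called higher and 1 lower, while of all 12143 genes at the floor 2.51% were called higher and 0.511% lower. Of the 8, 4 had a control value at or above the floor (Apoa1, Apoa2, Mttp and Alpi). With control values raised to the floor, 6 of the 8 were still called higher, and Rbp2 and Apob were not. Of the 15 members with several probe sets, 10 had no probe sets on opposite sides of 0.

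Of the 7 measured brush border enzymes 1 was called higher and none lower, where 1.91% of all measured genes were called higher and 0.368% lower. Alpi, the intestinal alkaline phosphatase, read 8.22 in transgenic islets and 5.86 in control islets, a difference of 2.36, or 5.15-fold. Its control value lay 0.096 above the floor. Its neighbours in the gene table, the alkaline phosphatases Alppl2 and Akp3, gave differences of 0.0069 (5.94 in transgenic islets and 5.93 in control islets) and 0.42 (4.98 in transgenic islets and 4.56 in control islets). The Akp3 values lie below the floor.

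Anpep, the aminopeptidase N that removes residues from peptides, read 6.76 in transgenic islets and 6.78 in control islets. Ace, the angiotensin converting enzyme, read 7.05 in transgenic islets and 7.06 in control islets at its brighter probe set. These 2 peptidases were thus present at similar values on both arrays. Dpp4, which cleaves incretin hormones and is not restricted to gut, was readable on both arrays at all its probe sets. Its 4 probe sets read 9.68, 6.38, 7.39 and 8.90 in transgenic islets, against 9.03, 6.37, 6.80 and 8.63 in control islets. The differences ran from 0.016 to 0.65, all positive and none past the rule. Lct (lactase) and the meprin genes Mep1a and Mep1b lay below the floor on both arrays. Their differences were 0.43, -0.17 and 0.72.

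Among the transporters, Slc6a19 was the only member called lower. This carrier of neutral amino acids read 5.77 in transgenic islets and 7.43 in control islets, a difference of -1.67. Its transgenic value lay only 0.0053 above the floor. Its other probe set read 4.45 in transgenic islets and 5.03 in control islets, also lower (-0.58) but below the floor on both arrays. Slc6a19 held rank 8 from the lowest difference among the 12143 genes. Slc6a18, a related carrier that adjoins it in the gene table, read 4.40 in transgenic islets and 4.73 in control islets, both below the floor.

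Slc5a1, the sodium-coupled glucose transporter, read 5.91 in transgenic islets and 5.0 in control islets, a difference of 0.91. Its dimmer probe set gave 4.16 in transgenic islets and 2.88 in control islets, a difference of 1.28. Both pointed the same way, with a single value out of 4 at the floor. Slc15a1, the peptide transporter, read 3.14 in transgenic islets and 3.22 in control islets. Cubn, the receptor that takes up vitamin B12 with intrinsic factor, read 4.22 on both arrays. Neither Slc15a1 nor Cubn was bright enough to read.

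Genes of the microvillus group, in which the keratin gene Krt20 was also placed, were readable in part. Vil1 (villin), an actin bundling protein, read 9.43 in transgenic islets and 9.39 in control islets, a difference of 0.048. Cdhr2, a protocadherin linking microvillus tips, read 5.92 in transgenic islets and 5.29 in control islets. Its partner Cdhr5 read 5.22 in transgenic islets and 5.13 in control islets, below the floor. Krt20, a keratin of mature intestinal epithelium, read 5.12 in transgenic islets and 3.79 in control islets, a difference of 1.33 that lies wholly below the floor. No gene of this group was therefore called higher with a readable value.

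Goblet cell and secreted products were mostly dim. Muc2, the gel-forming mucin that defines goblet cells, read 5.11 in transgenic islets and 5.25 in control islets. Tff3, a trefoil peptide of goblet cells, read 6.27 in transgenic islets and 5.89 in control islets, a difference of 0.38. Muc13, a membrane mucin of epithelia, read 6.56 in transgenic islets and 5.77 in control islets at its brighter probe set, a difference of 0.79. Guca2a (guanylin) and Guca2b (uroguanylin), peptides that regulate salt and water secretion, lay below the floor on both arrays with differences of -0.36 and 0.0063.

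The galectins, sugar-binding proteins of epithelia, were readable on both arrays at their brighter probe sets. Lgals4 read 8.64 in transgenic islets and 7.71 in control islets, a difference of 0.93. Lgals2 read 6.31 in transgenic islets and 6.11 in control islets at its brighter probe set, and its other probe set gave a difference of 0.88. None of the 3 intestinal transcription factors in the list reached the floor. Cdx2, the master regulator of intestinal identity, read 5.53 in transgenic islets and 5.12 in control islets, with its other probe set at 4.58 in transgenic islets and 4.73 in control islets. Cdx1 read 4.01 in transgenic islets and 3.96 in control islets. Hnf4g, an intestinal partner of Hnf4a, read 4.66 in transgenic islets and 4.67 in control islets. Its other probe sets read 3.98 each in transgenic islets, against 3.72 and 4.09 in control islets.

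**Figure D3:**
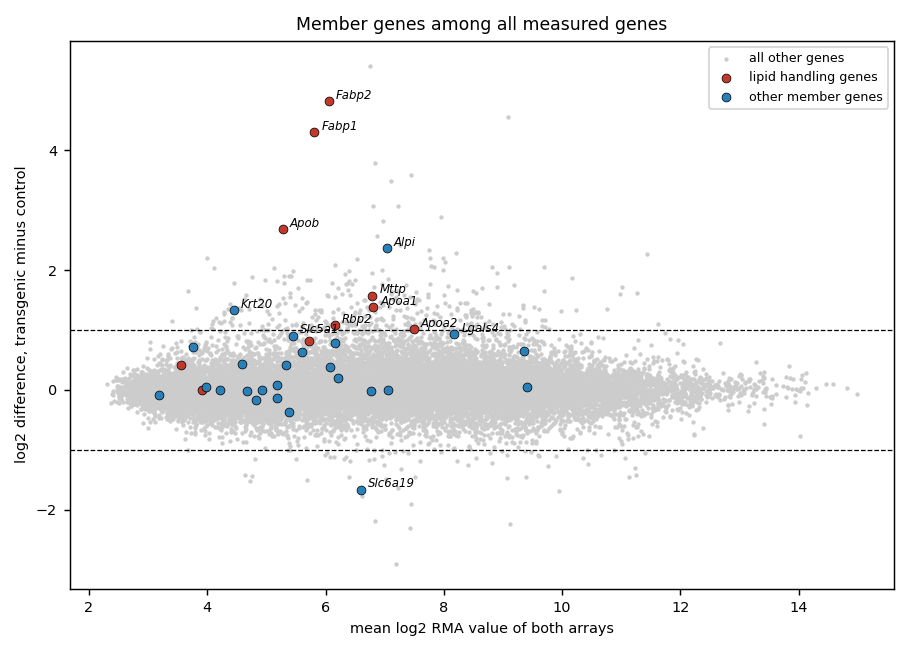
Log2 difference, transgenic minus control, against the mean log2 RMA value of both arrays for all 18193 measured genes (grey), the 10 lipid handling genes (red) and the 25 other measured members (blue). Dashed lines mark differences of 1 and -1. Fabp2 at 4.83, Fabp1 at 4.31 and Apob at 2.69 lie at the upper edge, each from a control value below the floor, and Slc6a19 lies at -1.67.

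Genes of the same pathways outside the member list were then examined. Beside the counts called in these and later lists stand 1.91% higher and 0.368% lower over all 18193 measured genes. At such shares a short list may hold no call. Of 30 genes of intestinal fat uptake and chylomicron formation, 25 were measured and none was called higher or lower, with a median of 0.17. Lpl (lipoprotein lipase) stood at -0.86 and Scarb1, a lipoprotein receptor, at 0.63. Cd36, a fatty acid transporter, stood at 0.75 at its brightest probe set. Another of its probe sets read 6.63 in transgenic islets and 5.30 in control islets, a difference of 1.33 that is past the rule, and the dimmest stood at 0.40. Mogat2, which makes diacylglycerol in enterocytes, read 5.75 in transgenic islets and 5.38 in control islets, below the floor. It was named after its value was seen.

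Of 15 other measured lipid binding protein genes none was called at its brightest probe set, and their median was 0.15. Acbd3, an acyl-CoA binding domain protein, had probe sets that disagree. Its brightest stood at -0.27 and another at 0.29. The remaining probe sets read 6.52 and 7.57 in transgenic islets, against 7.99 and 9.14 in control islets, differences of -1.47 and -1.57 that are past the rule. Fabp3, the heart-type protein, stood at -0.77 and Fabp5, the epidermal one, at 0.65. Of 19 other apolipoprotein and related genes 2 were called higher and none lower, with a median of 0.00. Apoc2, the activator of lipoprotein lipase, read 6.15 in transgenic islets and 4.11 in control islets, a difference of 2.03 from a control value below the floor. Apoe, which liver and macrophages make in quantity, read 10.64 in transgenic islets and 9.33 in control islets, a difference of 1.31.

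Of 20 measured genes responsive to PPAR alpha, a fatty acid sensor that raises Fabp1 in liver and gut, none was called, with a median of 0.28. Slc25a20, the mitochondrial carnitine carrier, was furthest at 0.77, Ppara itself lay below the floor (5.50 in transgenic islets and 5.64 in control islets) and Creb3l3, an activator of apolipoprotein genes, stood at -0.0043. Of 15 measured HNF, GATA and other endoderm factors none was called either, with a median of -0.087. Hnf4a, a regulator of Apob, Mttp and Apoa1, read 9.11 in transgenic islets and 9.26 in control islets. Foxa3 was furthest at -0.95.

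Of 22 other brush border genes, Slc3a1, a subunit of the cystine transporter, stood at 0.82 and Enpep, an aminopeptidase, at -0.69. In this list 1 was called higher, Myo1a, a brush border myosin, at 1.40. It read 5.62 in transgenic islets and 4.22 in control islets, below the floor. The median was 0.0052. Among 18 other goblet genes 2 were called higher, with a median of 0.10. Gucy2c, the receptor for guanylin and uroguanylin, read 9.10 in transgenic islets and 7.82 in control islets, a difference of 1.28. Muc4, a membrane mucin, read 9.70 in transgenic islets and 8.60 in control islets, a difference of 1.09, with its other probe sets at 0.96 and 0.24. Atoh1, the factor that specifies goblet cells, lay below the floor, at 4.85 in transgenic islets and 5.38 in control islets.

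Markers of hepatocytes, kidney tubule and intestinal cells other than enterocytes and goblet cells were compared between the samples. Of 21 measured hepatocyte markers none was called, 14 were below the floor on both arrays and the median was -0.27. Serpina1b, of the alpha-1-antitrypsin family, stood at -0.92 at its brighter probe set, while Ambp read 8.80 in transgenic islets and 8.63 in control islets. Alb (albumin) read 5.13 in transgenic islets and 5.47 in control islets, also below it. On the linear scale the summed level of the hepatocyte list was 17709 in transgenic islets and 20940 in control islets, most of it Ttr, which islets express. Its log2 value was 14.02 in transgenic islets and 14.27 in control islets. Of 14 enteroendocrine markers none was called higher and 1, Tac1, lower (-1.03), with a median of -0.10. Gip, Cck and Nts lay below the floor on both arrays, while 10 of the list reached it. Among these, Ghrl stood at 0.65. The islet hormone gene Gcg read 14.13 in transgenic islets and 14.19 in control islets, so the list is not specific to gut. Of 8 intestinal stem and Paneth cell markers none was called, and Lgr5 lay below the floor, at 4.82 in transgenic islets and 5.05 in control islets. Of 10 kidney tubule markers none was called, 8 were below the floor on both arrays and the median was 0.038. The lists were mixed in brightness. In the stem and Paneth list Olfm4 read 9.28 in transgenic islets and 9.55 in control islets. Lyz1 read 11.41 in transgenic islets and 11.16 in control islets at its brightest probe set. The brighter probe sets of Lyz1 are of a class that can match several transcripts. Its dimmest one read 4.66 in transgenic islets and 5.0 in control islets, below the floor on both arrays. In the list of other goblet genes Zg16 read 13.64 in transgenic islets and 13.46 in control islets. Of the 18 measured genes of that list, 8 were below the floor on both arrays.

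Some other properties of the samples moved in the same direction as the lipid handling genes. Of 20 macrophage markers 3 were called higher and none lower, where 1.91% of all measured genes were called higher and 0.368% lower. Their median was 0.73, and their summed linear level 10831 in transgenic islets and 7041 in control islets. Of the 15 that reached the floor 13 were higher, where 6584 of all 12143 genes at the floor were higher. Among the 13 were Mpeg1 at 1.25, the complement genes C1qb at 1.15 and C1qc at 1.14, and Itgax at 0.96. Cd14 (-0.34) and the brightest probe set of Msr1 (-0.060) were lower. The other 5 of the 20, Cx3cr1, Cd163, Itgam, Fcgr1 and Mrc1, were below the floor on both arrays. Of 16 stellate cell and fibroblast markers 2 were called higher, the collagen gene Col1a2 at 1.27 and Postn (periostin) at 1.05, with a median of 0.40 and sums of 10888 in transgenic islets and 6896 in control islets. The 19 acinar markers had a median of 0.14 and sums of 176954 in transgenic islets and 161854 in control islets, and 1 of them, the protease gene Ctrc, was called lower (-2.23). The 10 ductal markers had a median of 0.15, and 1 of them, Prom1, was called higher (1.11). All 17 measured beta cell markers reached the floor, none was called, and their median was 0.0062. The 24 poly-A spike controls added to the RNA were higher on the transgenic array by 0.81 to 1.96, and the 18 hybridisation controls by 0.15 to 0.59. More cells of a type and more RNA per cell cannot be told apart in such samples, and the part of these properties in the member differences was not tested.

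**Figure D4:**
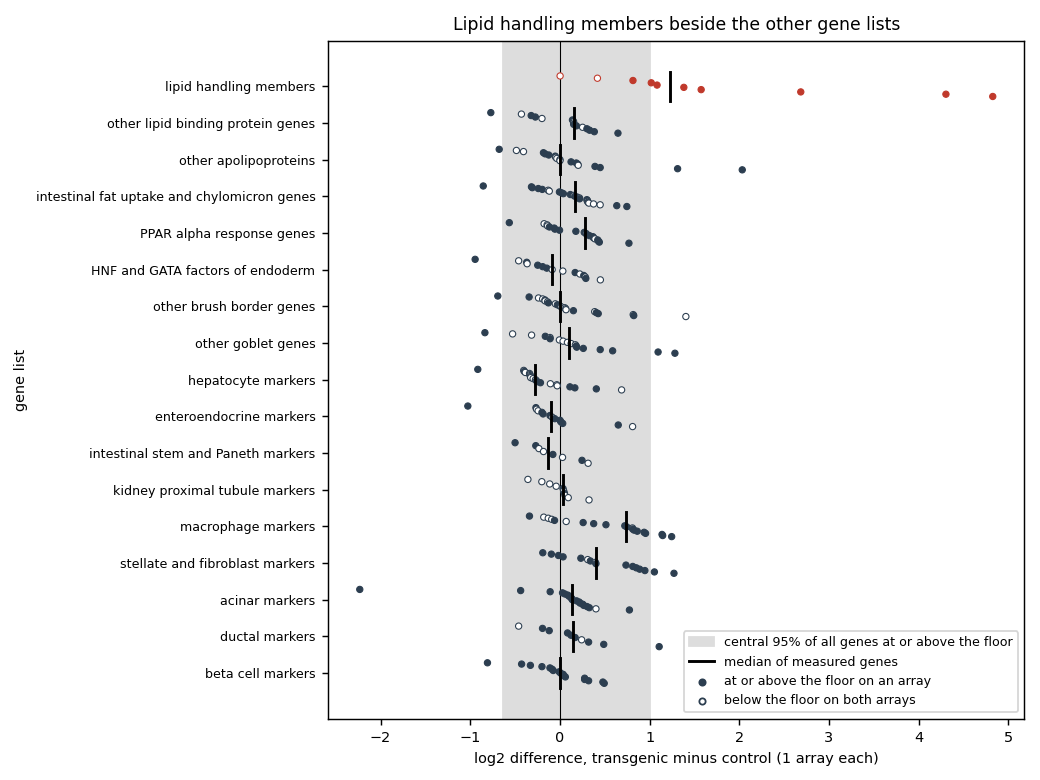
Log2 difference, transgenic minus control, of every measured gene in the lipid handling members (top row, red) and the 16 other gene lists. Filled points reached the floor on an array, open points did not, black bars are medians and the grey band is the central 95% of all genes at the floor. The band is the spread of single genes and is no measure for a median. The lipid handling median is 1.23 and the macrophage median 0.73.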

How the data were processed

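Biotin-labelled total RNA of islets was measured on Affymetrix mouse arrays, 1 array for each of 2 samples, grouped by the genotype in the labels. The deposited values are on a log2 scale, 1 per probe set. They were made with RMA in Affymetrix Expression Console per the submitters' processing notes, and no version is named there. The sorted log2 values of the deposited columns differed by at most 0.10, and both medians were 5.76. A single array per group limits the precision.

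Probe sets were named from the platform annotation, and symbols were updated by Entrez identifier to the GRCm38.p6 table. All 55 member probe sets matched by identifier. Members and gene lists were chosen with earlier results of these data known. All members were described. From each other list, up to 4 genes at the floor with the furthest differences could be named, besides others fixed by name, and not all of these are given. Genes neighbouring members, Mogat2, Myo1a, Nts, Lgr5, Acbd3, Ambp, Zg16, Cd14, Msr1 and the dim macrophage markers were named after their values were seen. The same holds for Thy1, Dcn and Fn1. Alternatives were averaging a gene's probe sets, dropping those of the classes _s, _x and _a, no floor, a floor at the 75th percentile, a lowess trend (span 0.3), a repeated quantile normalization and a 1.5-fold rule. The calculation was tested on simulated data. Python 3.11.15, numpy 2.4.6, pandas 2.3.3, statsmodels 0.14.6 and matplotlib 3.10.9 were used.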

Additional observations from a re-analysis of the deposited data

How the results depend on the processing

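Among members at the floor, 8 were called higher and 1 lower, where 2.51% and 0.511% of all genes at the floor were. With no floor, 1.91% of all measured genes were called higher. Under the other alternatives the share of all genes called was not counted, so the member counts there have no such comparison. With a floor at the 75th percentile (7.81) the member counts were 4 and 0, and with the 1.5-fold rule 14 were higher. The lowess trend and the mean over probe sets each left 8 higher, no floor gave 9, the repeated quantile normalization 7 (Apoa2 lost) and leaving out the _s, _x and _a classes 6, since Apoa1 and Apoa2 then have no probe set. Averaging probe sets took Apob below the floor and brought Apoa4 past the rule at 1.19, and Slc6a19 stood at -1.12. No called member changed sign under any alternative that gave it a value. The lipid handling minus the brush border and goblet median was 0.97 over genes at the floor. It was 3.65 with the stricter floor, where few genes are left, and 1.62 without the _s, _x and _a classes. It was 1.39 with each probe set counted once and no floor, and 0.73 without Fabp1 and Fabp2. These last 2 were chosen after seeing the data.

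Group medians over genes at the floor moved by more than 0.28, the median spread between probe sets of a gene, in these cases. With the stricter floor the medians were 4.31 for lipid handling (1.48 before), 1.02 for apolipoproteins and assembly (1.38), 1.51 for brush border enzymes (0.32), 0.93 for galectins (0.57) and 0.048 for microvillus genes (0.34). With no floor they were 2.69 for carriers (4.31), 0.066 for brush border and goblet genes (0.51), 0.0063 for goblet products (0.59) and -0.041 for transporters (-0.38). Transporters stood at -1.12 with probe sets averaged. Without the _s, _x and _a classes lipid handling stood at 2.13, brush border enzymes at 0.65 (0.32) and hepatocyte markers at 0.11 (-0.22). Which genes entered changed in all these cases, with more genes under no floor and fewer under the others. Averaging left Slc6a19 as the only transporter at the floor. Without the _s, _x and _a classes Apoa1 and Apoa2 left the lipid handling genes and Anpep the brush border enzymes. Causes beyond such changes were not tested. No paired analysis was possible because each group has 1 array.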
